A study of Mus musculus with 20 samples.

Results

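The Vehicle group of this study holds 5 of its 20 mice, and their hippocampal transcriptomes are described here. The members are the 5 libraries whose label gives Vehicle as the treatment. The mice were wild-type males aged 4 months by the labels, and received bilateral infusions of artificial cerebrospinal fluid through cannulas aimed at the CA1 field of the dorsal hippocampus. The other 15 mice had the same surgery, genotype, sex and age but received human hippocampal sRNAs, pooled from control individuals (Control, 5 mice) or from individuals with schizophrenia of either cohort (the groups Pool 1 and Pool 2, with 5 mice each). Tissue was taken 24 hours after the last behavioural test, so the Vehicle mice are operated, infused and behaviourally tested animals and not untouched ones. No untreated mouse was analysed here, so a response to the cannula or to the infusion cannot be told apart from the baseline of the tissue.

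The hippocampus is built of glutamatergic principal neurons in the dentate gyrus, CA3, CA2 and CA1 fields, a smaller set of GABAergic interneurons, and glia and vessels. It encodes spatial and episodic memory, and its neurons switch on immediate early genes after activity. Its inner surface faces the lateral ventricle, which is lined by ciliated ependymal cells and holds the choroid plexus, the epithelium that secretes cerebrospinal fluid. A whole-tissue library mixes all these cells, so fewer cells of a type and less RNA per cell cannot be told apart.

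Each Vehicle library held 20588280 to 25142848 counts (median 23320901), against 21351170 to 25543939 in the other 15, and a count of 3 corresponded to 0.119 to 0.146 counts per 1000000 (CPM). All 10 pairs of Vehicle libraries differed by more than sampling noise, with a chi-square per degree of freedom of 10.9 to 38.1. None was thus the same library sequenced again, but a second library of the same animal could also differ by this much. The labels call the mice separate samples, and the errors below are the spread between 5 mice. Vehicle mouse 4 stood apart by its choroid plexus genes, and results that rest on it are given with and without it. The labels name the strain as C57BL/6JOlaHsd. Nnt, a mitochondrial transhydrogenase that differs between C57BL/6 substrains, stood at 0.445 ± 0.138 CPM (SD, n = 5), but it overlaps a second gene of the same name on its strand and its counts are uncertain. The sex label fitted the data, with Xist at no more than 0.0931 CPM in any Vehicle mouse and the Y-linked genes Ddx3y (59.5 ± 9.1 CPM), Uty (18.9 ± 2.44), Kdm5d (37.1 ± 4.28) and Eif2s3y (61.6 ± 6.64) expressed (mean ± SD, n = 5).

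Levels of different genes were compared only after division by gene length, as counts per kilobase of merged exons scaled to a total of 1000000 in each library (TPM-like, called TPM below). The highest on this scale was Bc1, a short brain cytoplasmic RNA made by RNA polymerase III that is carried into dendrites and represses translation. Its TPM in Vehicle mice 1 to 5 was 37492, 33754, 54323, 53498 and 79663 (mean 51746 ± 18138, SD, n = 5), so mouse 5 was the highest and mice 1 and 2 the lowest. Bc1 lies at chr7:144914470-144914637 on the plus strand of GRCm38 and is a single exon of 168 bases. A gene this short is poorly placed on a per-length scale, so its first place is uncertain. As a share of the counts Bc1 took 0.233%, against 1.4% for mt-Co1. Libraries were selected for poly(A) tails, which polymerase III transcripts lack, and the Bc1 sequence is printed because it has an internal A-rich stretch (capitals mark the 25-base window richest in A, 24 of 25 bases, positions 77 to 101):
Bc1: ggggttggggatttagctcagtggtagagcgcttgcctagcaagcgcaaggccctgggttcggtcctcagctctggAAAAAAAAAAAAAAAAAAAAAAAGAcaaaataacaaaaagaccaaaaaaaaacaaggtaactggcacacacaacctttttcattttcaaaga

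Mitochondrially encoded RNAs filled 8 of the 20 highest places. The highest was mt-Co1, a subunit of cytochrome c oxidase, with 31393, 34754, 37203, 33656 and 34359 TPM in mice 1 to 5 (mean 34273 ± 2092). It was followed by mt-Cytb of complex III (20701 ± 1379) and by mt-Nd1 (19300.4 ± 1363), mt-Nd2 (11972 ± 1295), mt-Nd4 (8734 ± 651) and mt-Nd5 (6929 ± 1338) of complex I. The ribosomal RNAs mt-Rnr1 (13803 ± 973) and mt-Rnr2 (12751 ± 412) stood among them. Between mice these genes were steady, with an SD of log2 CPM of 0.06 for mt-Rnr2 to 0.29 for mt-Nd5.

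The 13 mitochondrial protein-coding genes fell into separate ranges although their RNAs are cut from shared precursors. The genes above took 3175 CPM or more, and mt-Nd6, the gene on the other strand, took 51.7 ± 7.9 CPM. By contrast mt-Co2 had 0.156 ± 0.0303 CPM, mt-Co3 0.165 ± 0.0726, mt-Atp6 0.121 ± 0.0372, mt-Nd3 0.44 ± 0.0767, mt-Nd4l 0.0516 ± 0.0707 and mt-Atp8 0.0253 ± 0.0231, which is 0 to 13 counts per library. Of all 50-base stretches (the read length) of mt-Co2, 100% were also present, letter for letter, in the transcripts of a nuclear gene. For mt-Co3 this share was 99.9%, for mt-Atp6 99.5%, for mt-Nd4l 98.8% and for mt-Nd3 98%. It was 62.2% for mt-Nd4, 51.1% for mt-Co1, 8.19% for mt-Nd2 and 7.61% for mt-Nd5, and 0 for mt-Cytb, mt-Nd1 and mt-Nd6. The gene counts hold only reads that map to 1 place, so the values of genes with such copies are uncertain, and the part of the copies in them was not tested. The nuclear copies were themselves low, with 4.55 CPM for Gm28661, the copy of mt-Co2, and 6.07 CPM for Gm10925, that of mt-Atp6. mt-Atp8 shared no stretch with an annotated nuclear transcript, and what keeps its count low was not tested.

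Ttr, the thyroid hormone carrier transthyretin, led the nuclear protein-coding genes with a mean TPM of 6572, but this mean describes no mouse, since the values were 2316, 3561, 488, 25600.2 and 895 in mice 1 to 5. Without mouse 4 the mean was 1815 TPM, below each of the other genes named here. Calm2, which encodes calmodulin, had 3553, 3819, 3858, 4069 and 4866 TPM (mean 4033 ± 500.4). Then came Cpe, the peptidase that matures neuropeptides (3432 ± 253), Selenow, a selenoprotein (3014 ± 419), and Nrgn, the calmodulin-binding neurogranin of dendritic spines (3004 ± 382). Ncdn, a neurite protein, stood at 2926 ± 148, the protease inhibitor gene Cst3 at 2888 ± 129, the elongation factor gene Eef1a1 at 2837 ± 175 and Tmsb4x, whose product binds actin monomers, at 2724 ± 511. Apart from Ttr these means lay within 2724 to 4033 TPM, and the order of Selenow, Nrgn, Ncdn, Cst3 and Eef1a1 was not resolved, because neighbours differed by less than their SD. Of the 20 highest genes, 15 were protein-coding.

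Among the RNAs that do not code for protein, the long RNAs of the nucleus came after the mitochondrial and the rRNA-like ones. Gm42418, a locus of chromosome 17 counted here among RNAs that are rRNA-like, had 9696, 9202, 1136, 2339.6 and 3238 TPM in mice 1 to 5, high in mice 1 and 2 and lowest in mouse 3. Gm23935 and Gm24187, annotated as miRNA genes of 57 bases each, had means of 4246 and 1621 TPM and their highest values in the same pair of mice. Genes shorter than a library fragment are poorly placed on a per-length scale, and as a share of the counts Gm23935 was only 0.00635%, and that of Mir5125, another short gene, was 0.000832% (398 ± 73.1 TPM). Meg3, an imprinted long RNA expressed from the maternal allele, had 761, 704, 718, 514 and 463 TPM (mean 632 ± 134). With a mean of 0.3% of all counts it was the non-coding nuclear gene with most reads over the 5 mice. Gm42418 had more in mice 1 and 2, and Bc1 had more in mouse 5. 2900097C17Rik had 576 ± 25.2 TPM and Malat1, a nuclear-speckle RNA, 376 ± 98.7.

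**Figure D1:**
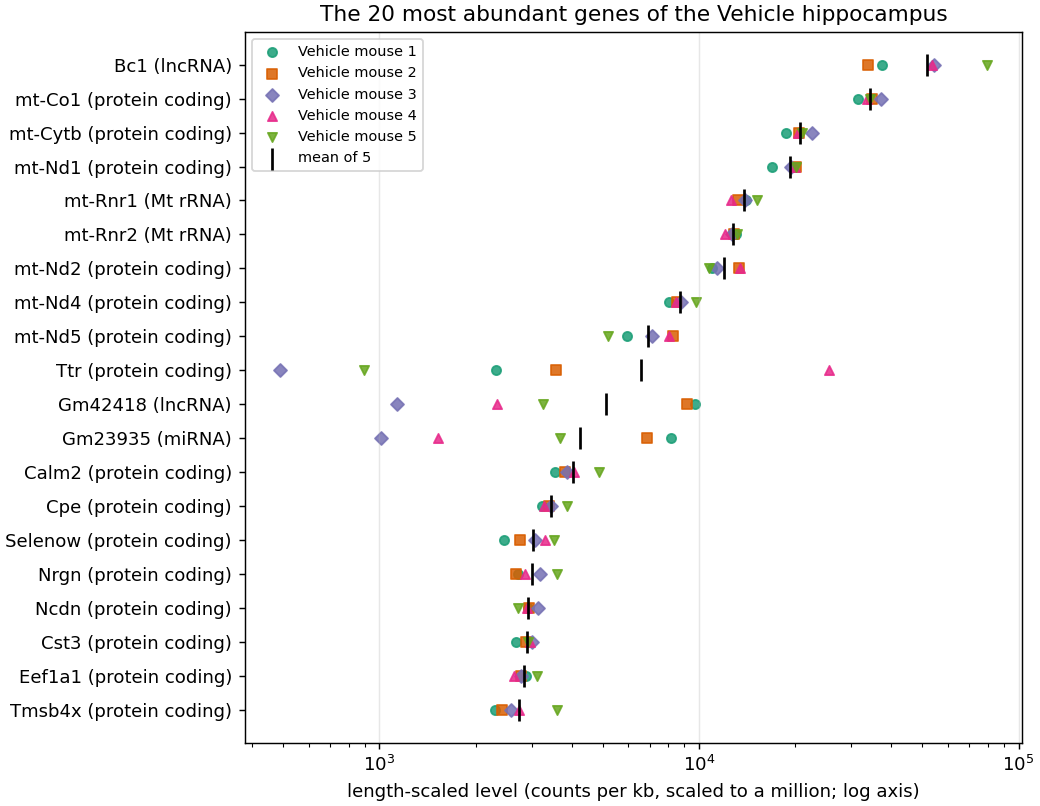
Length-scaled level (counts per kilobase of merged exons scaled to a total of 1000000 in each library, log axis) of the 20 most abundant genes in Vehicle mice, 1 symbol per mouse and a bar at the mean of 5. The symbols of Calm2 and Cpe lie close together, while Ttr spans 488 to 25600.2 and Gm42418 1136 to 9696.

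In all, 14853 of the 25190 genes in the table had a mean of at least 1 CPM in the Vehicle mice, and 14044 reached it in each of the 5. At least 10 CPM was reached by 10178 genes, 100 CPM by 2285 and 1000 CPM by 78, while 139 had no count in any Vehicle mouse. Between 999 genes (mouse 4) and 1126 genes (mouse 1) made up 50% of a library, so no few genes dominated it. Protein-coding genes were 66.5% of the table but 91.3% of the genes at 1 CPM and 97.1% ± 0.23 of the counts (SD, n = 5). Of the 16756 protein-coding genes, 13554 reached 1 CPM (80.9%). Of 3930 long non-coding RNA genes (lncRNA) 832 did so (21.2%), with 1.76% ± 0.187 of the counts. Pseudogenes of all kinds numbered 2474, of which 228 reached 1 CPM, and genes to be experimentally checked (TEC) 1460, of which 211 did. Among 519 small and structural RNA genes (miRNA, snoRNA, snRNA, scaRNA, rRNA, ribozyme and misc_RNA), 17 reached it in these libraries, which were selected for poly(A) RNA and not made for small RNAs. The 2 mitochondrial rRNA genes alone took 0.884% ± 0.0732 of the counts. Of 38 immunoglobulin and T cell receptor genes 3 reached 1 CPM, with Ighm at 19.4 CPM the highest.

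The make-up of the Vehicle libraries was set beside that of the 15 sRNA libraries by exact two-sided permutation tests on 6 shares (all 15504 assignments, smallest p-value possible 6.45e-05). Mitochondrially encoded genes took 3.95, 4.35, 4.45, 4.45 and 4.77% of the counts in Vehicle mice 1 to 5. The mean was 4.39% ± 0.294 (SD, n = 5) against 4.61% ± 0.527 (n = 15, exact permutation p = 0.404). This share holds only reads that map to 1 place, so reads of the mitochondrial genes with nuclear copies are missing or uncertain in it. Protein-coding genes took 97.1% against 96.8% (exact permutation p = 0.11), and lncRNA genes 1.76% against 1.91% (exact permutation p = 0.343). For pseudogenes the shares were 0.128% and 0.133% (exact permutation p = 0.408), and for the other non-coding classes 1.01% and 1.18% (exact permutation p = 0.0648). For the 50 genes with most counts in Vehicle they were 12.8% and 13% (exact permutation p = 0.389). Those 50 were picked by their Vehicle counts, so the permutation does not treat both sets alike and nothing is concluded from it. The Benjamini-Hochberg adjusted p-values of these exact permutation tests were 0.331 to 0.408, so none was past 0.05, and the ranges of both sets overlapped for all 6.

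Cell classes were read from 21 lists of marker genes, and the tissue label was checked against them first. All 10 pan-neuronal and glutamatergic markers were expressed, from 177 ± 13.6 TPM for Rbfox3, the neuronal nuclear antigen NeuN, to 3004 ± 382 for Nrgn (mean ± SD, n = 5). Their list median of 698 TPM was the highest of the 21. Neurod6, a transcription factor of pyramidal neurons, varied most of them, with 185, 304, 277, 352 and 299 CPM in mice 1 to 5. Mouse 1 had the lowest value of 9 of the 10, though the list spanned only 0.35 between its mean log2 deviations by mouse.

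Markers of every hippocampal field were present, so the tissue was more than CA1, the field named in the series' design text. Of the CA1 markers, Wfs1, an endoplasmic reticulum protein that marks CA1 pyramidal cells, had 234 ± 38.1 TPM. Mouse 3 was the highest for 4 of the 5 CA1 markers, for example Wfs1 with 195, 216, 299, 224 and 234 CPM. Of the CA2 markers, Rgs14, a regulator of G protein signalling that limits plasticity in CA2, had 146 ± 22.6 TPM, Cacng5, an AMPA receptor auxiliary subunit, 23.7 ± 4.05, and Amigo2, an adhesion protein, was the most variable (25.7, 35.2, 23.7, 45.3 and 35.4 CPM). The CA3 list ran from Coch (9.73 ± 4.73 TPM), which encodes the extracellular protein cochlin, to Bok (187 ± 51), a BCL2 family member. Bok had 53.2, 107, 79.7, 124 and 90.8 CPM, lowest in mouse 1 and highest in mouse 4, and so had 4 of the 5 CA3 markers their lowest value in mouse 1 and 4 their highest in mouse 4. In the dentate list, C1ql2, a synaptic organiser of mossy fibres, had 144 ± 37 TPM, Glis3, a transcription factor, 7.14 ± 0.679, and Tdo2, which degrades tryptophan, was the most variable (8.64, 6.15, 6.34, 6.45 and 13.3 CPM). The list median was 22.7 TPM for the dentate, 39.5 for CA2, 37.4 for CA3 and 136 for CA1, though medians of different genes do not measure numbers of cells.

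Markers of adult neurogenesis were low. In the adult neurogenesis list Sox11, a transcription factor of immature neurons, had 7.67 ± 2.28 TPM and Mki67, the proliferation antigen, 0.722 ± 0.222. Eomes, a factor of intermediate progenitors that also marks some other neurons, was the most variable, with 5.1, 0.693, 0.565, 0.746 and 0.698 CPM, high in mouse 1 alone. Mouse 1 was the highest for 5 of the 6 genes of this list.

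The 12 interneuron markers ran from Vip, a neuropeptide of disinhibitory cells, at 12.5 ± 1.1 TPM to Sst, somatostatin, at 879.7 ± 73.2, and the list mean differed between mice by only 0.17 on the log2 scale, the smallest of the cell-class lists. Single interneuron markers did not share this, with a median SD of 0.19 against 0.16 for astrocyte and 0.16 for pan-neuronal markers. Gad1, which makes GABA, had 365, 367, 393, 352 and 375 CPM in mice 1 to 5, and Sst 177, 166, 157, 158 and 175. Pvalb, the calcium buffer of fast-spiking cells, had 21.6, 24.2, 26, 20.6 and 29.8 CPM (89.2 ± 12 TPM). Syt2, a vesicle calcium sensor found in the terminals of those cells, had 37, 26.2, 30.1, 21.6 and 18.6 CPM (13.4 ± 4.21 TPM), highest in mouse 1 and lowest in mouse 5. The most variable of the list was Calb2, calretinin, with 37.3, 15.9, 12.4, 10.2 and 14.3 CPM and an SD of 0.72, again highest in mouse 1.

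Among glia, astrocyte markers ran from Sox9 (32.1 ± 5.65 TPM), a glial transcription factor, to Glul (1721 ± 127), which makes glutamine from glutamate. Gfap, the intermediate filament of reactive astrocytes, was the most variable, with 507, 617, 524, 362 and 564 CPM and its lowest value in mouse 4. The lowest oligodendrocyte marker was Opalin, a sialoglycoprotein of myelin, with 38.3 ± 6.38 TPM. The oligodendrocyte markers split the mice into groups that did not overlap: Mbp, myelin basic protein, had 3596, 3791, 1811, 2341 and 2129 CPM, so mice 1 and 2 stood above mice 3, 4 and 5. The same order held for Ermn, a cytoskeletal protein of myelinating cells and the most variable of the list (119.9, 129, 55.4, 76.4 and 62.8 CPM), and all 10 markers were highest in mouse 1 or 2 and lowest in mouse 3. Oligodendrocyte precursors did not follow, with list deviations of 0.07, 0.15, 0.04, 0.02 and -0.28. Their highest and lowest markers were Gpr17 (38.3 ± 8.79 TPM), a receptor of committed precursors, and Bmp4 (5.2 ± 1.15), a growth factor and the most variable one.

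The lowest microglial marker was Itgam, an integrin chain, with 6.65 ± 1.31 TPM. Aif1, which encodes the microglial stain IBA1, had 7.16, 7.53, 6.58, 5.31 and 10.7 CPM (18.5 ± 4.66 TPM). C1qa, a complement component, varied most (66.3, 61.9, 44.4, 42.7 and 79.8 CPM). Mouse 5 was the highest for 8 of the 10 markers and mouse 4 the lowest for 9. The peripheral leukocyte list held no gene with a mean of 1 CPM: its highest member by length, S100a9 of neutrophils, had 2.25 ± 2.16 TPM, varied most and was at 0 in mouse 3, and its lowest, the B cell antigen Ms4a1, had 0.0374 ± 0.0456 and was at 0 in mice 2 and 4. In the blood list Hbb-bs, adult beta globin, had 187 ± 61.5 TPM, while Slc4a1, the red cell anion exchanger, was at 0.125 ± 0.122, with 0 in mice 3 and 4.

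Vessels gave moderate levels. Endothelial markers ran from Cdh5 (10.5 ± 2.23 TPM), VE-cadherin and the most variable of its list, to Itm2a (95.3 ± 7.41), a membrane protein. Mural markers ran from Abcc9 (4.15 ± 0.791 TPM), a potassium channel subunit of pericytes, to Vtn (111 ± 15.3), vitronectin. Acta2, smooth-muscle actin, varied most, with 10.9, 12.7, 11.3, 4.39 and 18.9 CPM, lowest in mouse 4 and highest in mouse 5. Markers of meningeal fibroblasts were low: Dcn, decorin, had 9.26 ± 6.52 TPM, and Igf2, a growth factor also made by the choroid plexus, was lowest and most variable with 1.56, 1.52, 0.686, 4.04 and 0.745 CPM.

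Markers of neighbouring regions were found at low level. Thalamic markers ran from Lef1 (2.38 ± 0.289 TPM) to Prkcd (42.3 ± 4.33), a kinase also found elsewhere, and Slc17a6, the vesicular glutamate transporter of thalamic and other subcortical neurons, had 28.1, 9.09, 17.3, 4.48 and 8.24 CPM, highest in mouse 1. Neocortical markers ran from Foxp2 (0.544 ± 0.261 TPM), the most variable, to Tbr1 (31.8 ± 4.84), which hippocampal pyramidal cells also express. Fezf2, a factor of deep-layer cortical neurons, had 45.2, 21.2, 18.2, 18.8 and 18.4 CPM, again with mouse 1 the highest. Striatal markers ran from Adora2a (2.67 ± 1.44 TPM) to Ppp1r1b (79.9 ± 24.5), the phosphatase inhibitor DARPP-32. Mouse 1 was the highest for 5 of the 6 striatal, 3 of the 5 neocortical and 2 of the 7 thalamic markers. Ependymal markers ran from Rarres2 (11.1 ± 4.51 TPM), the chemokine chemerin, to Foxj1 (22.3 ± 9.7), the master factor of motile cilia.

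**Figure D2:**
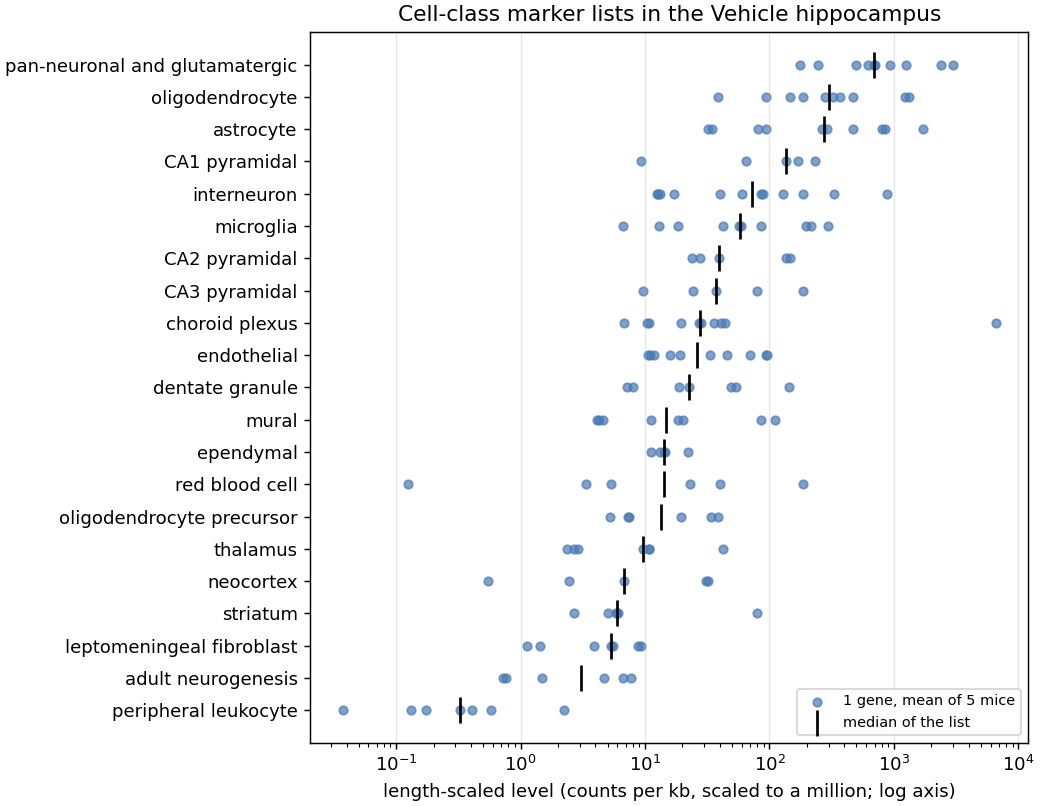
Length-scaled level (log axis) of each marker gene, as the mean of 5 Vehicle mice, in the 21 cell-class lists, with a bar at each list's median. Neuronal, oligodendrocyte and astrocyte lists lie highest (medians 698, 301 and 276), the peripheral leukocyte list lowest (0.327), and Ttr lies far above the other choroid plexus genes.

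The other 9 lists, of processes and sample checks, were read in the same way. Immediate early genes, which neurons switch on within minutes of activity, all had a mean above 1 CPM, from Egr2 (2.35 ± 2.5 TPM) to Arc (154 ± 85.1), a regulator of AMPA receptor traffic. Arc had 203, 70.1, 179, 77.7 and 83.1 CPM in mice 1 to 5 and Fos, a subunit of the AP-1 factor, 21.2, 5.15, 15.9, 6.84 and 5.4, so that mice 1 and 3 stood above the other 3 mice in both. Egr2 had the largest SD of the list (1.24), with 5.6, 1.08, 2.1, 0.834 and 0.559 CPM. Of the 15 genes, 11 were highest in mouse 1, 3 in mouse 3 and 1, Nr4a3, in mouse 2. The CRE, the site of the activity-dependent factor CREB, was searched in the 300-base RefSeq promoter windows (GRCm38.p6) of these genes as TGACGTCA, which reads the same on both strands. It was found in 2 of the 11 genes with a window, Dusp1 and Btg2, and in 2 of their 15 windows (13.3%), against 1.79% of all 32851 windows. Both are shown because the list moved together between mice, with the CRE in capitals. The Dusp1 window is at chr17:26508423-26508722 and the Btg2 window at chr1:134079106-134079405, both on the minus strand, each covering the start of transcription and the bases before it, and the CRE begins at base 108 and base 85, respectively:
Dusp1: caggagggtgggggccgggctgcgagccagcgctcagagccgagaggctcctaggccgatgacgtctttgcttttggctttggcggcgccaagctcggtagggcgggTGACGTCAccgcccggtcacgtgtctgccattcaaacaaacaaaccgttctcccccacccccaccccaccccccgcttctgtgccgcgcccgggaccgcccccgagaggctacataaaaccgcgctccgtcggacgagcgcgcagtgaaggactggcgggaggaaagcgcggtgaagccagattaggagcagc
Btg2: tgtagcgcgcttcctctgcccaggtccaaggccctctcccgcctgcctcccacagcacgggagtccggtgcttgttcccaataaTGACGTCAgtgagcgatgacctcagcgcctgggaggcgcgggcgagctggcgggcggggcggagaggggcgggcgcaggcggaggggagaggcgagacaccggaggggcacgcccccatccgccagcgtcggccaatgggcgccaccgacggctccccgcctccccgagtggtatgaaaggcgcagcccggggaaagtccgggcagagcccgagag

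Dusp1, a phosphatase that switches off MAP kinases, had 18.2, 7.92, 14.7, 7.85 and 9.08 CPM in mice 1 to 5, and Btg2, an antiproliferative factor, 20.5, 12, 15.9, 11.8 and 17.2. Dusp1 thus followed Arc in placing mice 1 and 3 above the others, whereas in Btg2 mouse 5 stood above mouse 3. The match is a description of these letters and not of binding.

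Circadian clock genes were steadier, with a median SD of 0.21 over the 15 against 0.45 for the immediate early list and 0.15 for all genes of at least 5 CPM. They ran from Ciart (12.7 ± 3.23 TPM), a repressor of the clock and the most variable of the list, to Tef (173 ± 18.6), an output factor. The E-box CACGTG, at which CLOCK and BMAL1 bind, was found in 5 of the 13 clock genes with a window and in 6 of 18 windows (33.3%), against 7.15% of all windows. It reads the same on both strands, and it shares the core ACGT with the CRE although neither contains the other. Ciart, with 9.48, 5.71, 7.51, 5.79 and 9.17 CPM, holds 3 copies in its window at chr3:95882179-95882478 (minus strand), which is shown with the copies in capitals:
Ciart: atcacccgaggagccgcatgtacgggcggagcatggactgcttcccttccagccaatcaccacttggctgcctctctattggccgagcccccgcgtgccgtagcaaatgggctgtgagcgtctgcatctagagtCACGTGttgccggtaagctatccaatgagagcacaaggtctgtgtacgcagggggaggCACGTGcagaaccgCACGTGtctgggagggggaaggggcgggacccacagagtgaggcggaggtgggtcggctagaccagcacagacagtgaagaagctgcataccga

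Glucocorticoid-responsive genes, which stress hormones raise, ran from Cdkn1a (6.82 ± 1.65 TPM), a cell cycle inhibitor, to Sgk1 (47.9 ± 11), a kinase, and Zbtb16, a transcription factor, varied most (55.2, 51.2, 52.8, 53.7 and 30.5 CPM, lowest in mouse 5). Fkbp5, a cochaperone of the glucocorticoid receptor, differed little, with 58.4, 60.2, 57.2, 57.2 and 56.6 CPM. Heat shock genes ran from the stress-inducible Hspa1a (7.1 ± 1.31 TPM) to the constitutive chaperone Hsp90ab1 (2240.5 ± 50.2), and Hspb1, a small heat shock protein, varied most (SD 0.34). Interferon-stimulated genes ran from Cxcl10 (1.13 ± 1.02 TPM), a chemokine and the most variable of the list, to Ifi27 (113 ± 21.8). Ifit3, an antiviral effector, had 6.49, 8.96, 4.12, 4.39 and 12.1 CPM, high in mice 2 and 5, and 7 of the 10 genes were lowest in mouse 3. Reactive astrocyte genes ran from Lcn2 (0.768 ± 0.877 TPM), lipocalin 2 and the most variable, to Gfap, and Serpina3n, a protease inhibitor, had 223, 234, 222, 74.5 and 277 CPM, with mouse 4 far below the others. The 6 measured RNAs without a poly(A) tail or rRNA-like ran from Gm26917 (20.7 ± 14 TPM) to Gm42418, and Rn7sk, the 7SK RNA that holds the elongation factor P-TEFb inactive, was the most variable (34.5, 41.3, 1.94, 4.69 and 8.15 CPM).

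The spread between mice was measured as the SD over the 5 mice of log2 CPM, for the 11828 genes with a mean of at least 5 CPM. The median SD was 0.15 and the 90th percentile 0.32. An SD of 0.5 or more was found in 340 genes (2.87%) and of 1 or more in 63. The variance of the median gene was 8.61 times that of Poisson counting, so counting error made up a small part of it for most genes. The edgeR coefficient of variation common to these 11828 genes was 15.5% in Vehicle, 16.4% in Control, 15.2% in Pool 1 and 14.8% in Pool 2. The genes were chosen by their Vehicle mean for all 4 groups. In Vehicle the coefficient was 13.9% without mouse 4 and 13.9% without mouse 5, against 16% to 16.9% without mouse 1, 2 or 3. The median SD was 0.116 without mouse 5 and 0.151 without mouse 4. The 50 genes with the largest SD were taken as the most variable, with Steap2 just inside (SD 1.14) and Vat1l just outside (1.11). In 40 of the 50 the mouse farthest from the median was mouse 4, by a higher value, in 4 it was mouse 1 and in 2 mouse 2, both by higher values, and in 4 it was mouse 3, by a lower value.

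**Figure D3:**
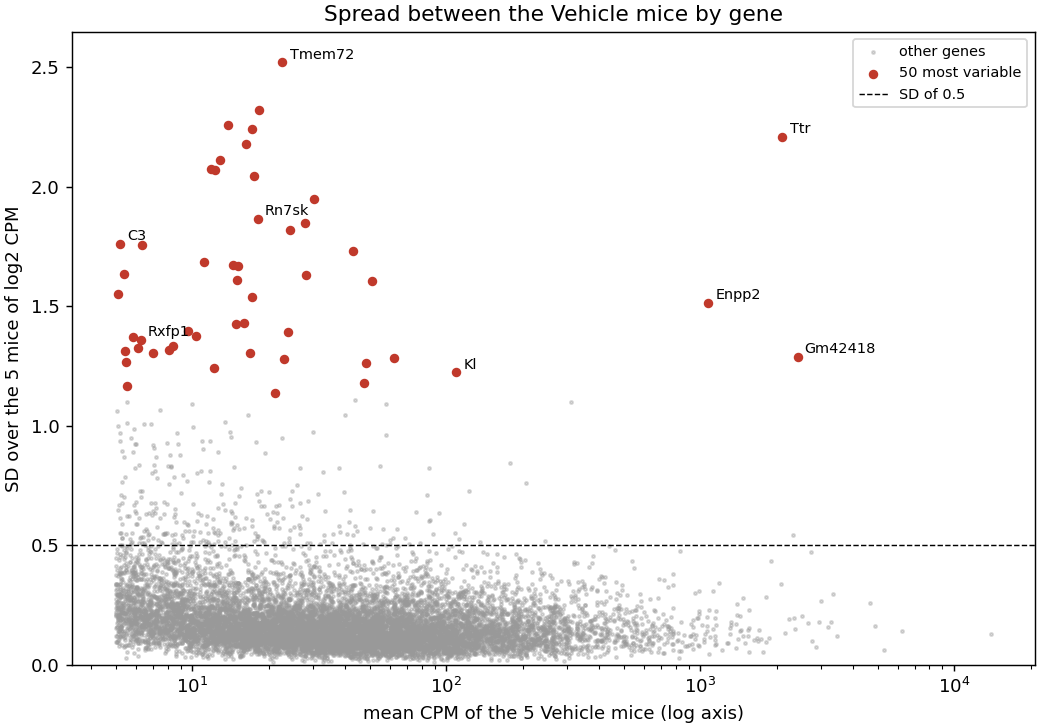
SD over the 5 Vehicle mice of log2 CPM against the mean CPM (log axis), 1 point per gene for the 11828 genes of at least 5 CPM, with the 50 most variable in red and a dashed line at an SD of 0.5. Most genes lie near the median of 0.15, and only Ttr, Enpp2 and Gm42418 combine a mean above 1000 CPM with a place among the 50.

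The largest spread belonged to genes of the choroid plexus epithelium. Tmem72, a membrane protein gene, had 4.72, 13.1, 1.01, 92.5 and 1.91 CPM in mice 1 to 5 (SD 2.52), and Mfrp, a frizzled-related receptor, 3.33, 10.2, 1.45, 75 and 1.68. In both, mouse 4 stood above all others, mice 1 and 2 were intermediate and mice 3 and 5 lowest. The ion and water transport genes followed the same order: Aqp1, the water channel, had 3.75, 7.66, 0.848, 55.2 and 1.82 CPM, Kcnj13, a potassium channel, 4.76, 9.52, 1.33, 68.7 and 1.77, and Slc4a5, a bicarbonate cotransporter, 4.55, 10.6, 1.37, 63 and 1.91. Kcne2, a channel subunit, ranged from 1.05 to 50.5 CPM, Clic6, a chloride channel, from 5.65 to 138, and Trpv4, a cation channel, from 1.86 to 37.9. Ttr itself had 680.2, 1089, 152, 8329.6 and 292 CPM, a ratio of 55 between the highest and the lowest mouse. Receptors and barrier genes moved too, with mouse 4 at 64.7 CPM and the rest at 1.86 to 10.8 for Folr1, the folate receptor that carries folate into cerebrospinal fluid. For Prlr, the prolactin receptor, the corresponding values were 103 and 4.42 to 16.3. Cldn2, a tight junction claudin, reached 45.7 CPM in mouse 4 against at most 6.75 elsewhere, and Cldn1 20.3 against at most 2.25.

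Secreted and matrix genes completed this set. Enpp2, which encodes autotaxin and makes lysophosphatidic acid, had 661, 740.0, 237, 3452 and 302 CPM, and Ace, the angiotensin-converting enzyme, 29.5, 32.4, 11, 170.4 and 11.3. Kl, klotho, a coreceptor for FGF hormones, had 62.7, 79.4, 45.1, 324 and 38.3 CPM and Sostdc1, a BMP and Wnt antagonist, 6.87, 10.5, 3.92, 59.7 and 5.35. Mouse 4 was again far above the others, and in each of these genes mice 1 and 2 lay above mice 3 and 5. The rest of the 30 most variable genes that were highest in mouse 4 had SDs of 1.40 to 2.07. They were the collagen VIII genes Col8a1 and Col8a2, F5 (coagulation factor V), Ecrg4 (a secreted peptide precursor), Abca4 (a lipid transporter), Sulf1 (a heparan sulfatase), Lbp (the lipopolysaccharide-binding protein), Slc2a12 (a glucose transporter), Sema3b (a semaphorin), Drc7 (of the cilium's dynein regulatory complex), Wdr86 and the lncRNA 2900040C04Rik. All 10 genes of the choroid plexus list were among the 50, and the summed CPM of the list was 817, 1271, 219.6, 9222 and 364 in mice 1 to 5. In the other groups it was 125 to 2353 CPM (Control), 113 to 309 (Pool 1) and 99.9 to 1534 (Pool 2), so that mouse 4 lay above all 19 other libraries, and no choroid plexus marker was at 0 in any Vehicle mouse.

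Ependymal genes as a list did not share the high value of the plexus list in mouse 4. In the other mice the summed CPM of both lists was higher in mice 1 and 2 than in mice 3 and 5. Their summed CPM was 46.2, 43.9, 15.6, 32.8 and 36.1 in mice 1 to 5, lowest in mouse 3, in which all 5 markers had their lowest value. Tmem212, the most variable of them, had 4.34, 3.68, 0.525, 1.27 and 3.72 CPM, and Ccdc153, a cilia gene, 9.86, 10.5, 2.83, 3.29 and 8.8. Foxj1 had 20.7, 18.1, 7.11, 20.9 and 9.82 CPM, so that mouse 4 was level with mouse 1 for this factor, but it was the second lowest for Tmem212 and Ccdc153.

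A second set ordered the mice differently and held RNAs that a poly(A) selection should remove. Rn7sk was high in mice 1 and 2 (SD 1.87), as were Gm42418 with 4396, 4344, 544, 1175 and 1631 CPM and Gm24187 with 44.1, 46.2, 4.84, 10.4 and 13.4. Lars2, whose gene holds an rRNA-like stretch, had 565, 499, 93.8, 157 and 235 CPM. In all of them mice 1 and 2 stood above mice 3, 4 and 5, the same split as that of the myelin genes. The summed CPM of the list was 5032, 4918, 649, 1349 and 1886 in mice 1 to 5, against 558 to 13808 in the other 15 libraries. Gm42418 also differed between the other groups, with 469.9 to 1556 CPM in Control, 1511 to 12404 in Pool 1 and 2963 to 8307 in Pool 2, so Vehicle mice 1 and 2 lay within the pools' range and mice 3, 4 and 5 within or near that of Control. C3, the central complement protein, was the remaining gene of the 30, with 9.31, 8.75, 0.767, 0.834 and 6.28 CPM: mice 1, 2 and 5 stood above mice 3 and 4. Whether the split of the myelin genes and that of these RNAs are linked was not tested.

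Mouse 1 carried a further set. Rxfp1, the relaxin receptor, had 20.5, 3.55, 3.11, 2.5 and 1.72 CPM and Nxph3, a neurexophilin, 20.4, 2.77, 2.42, 2.46 and 2.56, with mouse 1 far above the others in both. Slc17a6, Calb2, Fezf2 and Eomes, given above, shared this high value, and so did Tshz2, a transcription factor, with 53.5, 15.3, 31.7, 6.32 and 8.52 CPM, although there mouse 3 was also raised. The immediate early genes were high in the same mouse, and pan-neuronal genes were at their lowest there.

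Mouse 5 differed by the length of its RNAs. For 1141 nuclear genes with merged exons under 2 kb and at least 5 CPM, the median deviation from the 5-mouse mean was -0.09, -0.09, -0.03, 0.03 and 0.18 (log2) in mice 1 to 5. For 4312 genes of 6 kb or more it was 0.03, 0.05, 0.05, 0.02 and -0.16. Short RNAs were thus higher and long ones lower in mouse 5 than in the other 4, and Bc1 and Tmsb4x, both short, had their highest values there (1559.7, 1462, 2389.7, 2466 and 3682 CPM for Bc1). Of the 340 genes with an SD of 0.5 or more, 84 had mouse 5 as the farthest from the median by a lower value, 117 mouse 4 by a higher value, 45 mouse 1 by a higher value and 40 mouse 3 by a lower one.

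**Figure D4:**
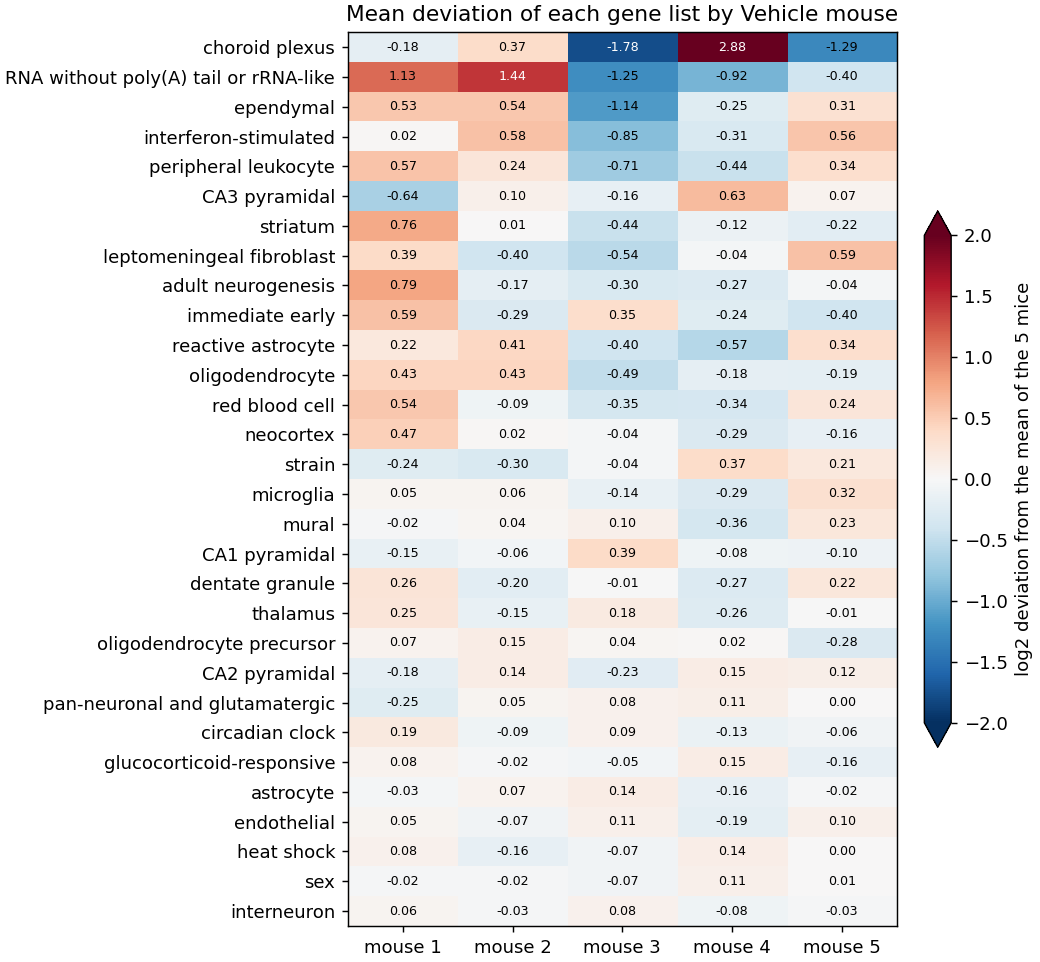
Mean log2 deviation of each of the 30 gene lists from the mean of the 5 Vehicle mice, with 1 column per mouse, ordered by range. The choroid plexus list spans -1.78 (mouse 3) to 2.88 (mouse 4, beyond the colour scale), the rRNA-like list separates mice 1 and 2 from the rest, and the interneuron list stays within -0.08 and 0.08.

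Leaving out mouse 4 changed which genes were the most variable. Of the 50 then found, 23 were shared, and the farthest mouse was mouse 3 by a lower value in 25, mouse 5 by a lower value in 14, mouse 1 by a higher value in 7 and mouse 2 by a higher value in 4. A set low in mouse 5 alone came into view, from which 4 genes are named after their values were seen. Hipk2, a nuclear kinase, had 66.6, 80.3, 65, 65 and 12.8 CPM in mice 1 to 5 and Gucy1a2, a subunit of the nitric oxide receptor guanylate cyclase, 9.27, 10.7, 14.7, 12.9 and 2.19. Hs6st3, a heparan sulfate sulfotransferase, had 10.7, 15, 20.6, 12.6 and 3.96 CPM and Cntnap5c, a neurexin family member, 17.7, 29.7, 32.6, 26.5 and 6.52. In each of these mouse 5 lay below the range of the other 4.

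At the other end, 2266 protein-coding genes had at least 100 CPM, and the 10 of them with the smallest SD (0.0164 to 0.0256) were Pak1, Nrd1, Csnk1d, Cpeb1, Ank, Zmynd11, Slc25a51, Ivd, Gtf2i and Arhgdia. Pak1, a kinase that remodels actin in spines, had 289, 292, 292, 288 and 296 CPM. Csnk1d, the casein kinase that times the clock protein PER, had 153, 149, 151, 149 and 150.0, and Cpeb1, which binds the cytoplasmic polyadenylation element of dendritic mRNAs, 98.8, 100.5, 101, 101 and 102. They were chosen for their small spread in these mice, and in the groups that the choice did not use their SDs were larger, 0.0461 to 0.221 in Control, 0.052 to 0.233 in Pool 1 and 0.0438 to 0.185 in Pool 2.

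The same choice was then read in the mice it did not use. Of the 50 most variable genes of Vehicle, 12 (24%) were among the 50 most variable of Control, 8 (16%) of Pool 1 and 3 (6%) of Pool 2. Each of those lists also held 50 genes, a small part of the genes ranked (11828 in Vehicle). All 3 shares lay above that part. For 35 of the 50 the median of the other 15 libraries was under 5 CPM, where log2 values of low counts spread more, so their SDs in the other groups are not compared. Ttr, which was well above that level everywhere, ranged from 75 to 2114 CPM in Control, 66.4 to 222 in Pool 1 and 53.6 to 1379 in Pool 2.

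Whether the Vehicle mice as a group differed from the mice given sRNAs was tested with edgeR across all 25190 genes, as Vehicle minus the mean of Control, Pool 1 and Pool 2. At the threshold of the study, a log2 fold change of at least 0.3 in size and an unadjusted p-value under 0.05, 968 genes were higher in Vehicle (3.84%) and 232 lower (0.921%). After Benjamini-Hochberg adjustment 2 genes (0.00794%) passed 0.05. Col6a3, a chain of collagen VI, had 21.2, 10.7, 4.6, 7.15 and 8.47 CPM in Vehicle mice 1 to 5 against 2.56 to 7.23 in the other 15 (log2 fold change 1.49, SE 0.24, edgeR adjusted p = 0.0405). Mice 1, 2 and 5 lay above all 15, and mice 3 and 4 within them. Without mouse 1 the fold change was 1.05 and the edgeR adjusted p 0.267, and without mouse 2 or 5 the latter was 0.195 or 0.0665. Ighv1-81, an immunoglobulin variable segment, had 10, 9, 1, 6 and 12 counts in Vehicle mice 1 to 5 and 0 to 2 in the others (edgeR adjusted p = 0.00885). Such low counts of a segment with close relatives are uncertain, and leaving out mouse 1, 2 or 5 raised its edgeR adjusted p to 0.0656, 0.0555 or 0.0665.

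Among genes of at least 1 CPM, the next smallest unadjusted p-values of genes higher in Vehicle included those of Ano2, Neat1 and Otx2, whose edgeR adjusted p-values were 0.161 to 0.253. Ano2, a calcium-gated chloride channel, had 5.56, 2.86, 1.61, 1.89 and 3.17 CPM against 0.672 to 2.3 (log2 fold change 1.15, SE 0.23). For Neat1, the RNA scaffold of paraspeckles, the values were 185, 252, 125, 194 and 181 against 88.7 to 200.1 CPM (0.59, SE 0.12). Otx2, a homeobox factor of the choroid plexus, had a fold change of 2.04 (SE 0.42), which was 1.14 without mouse 4. In the other direction stood Slc2a5, a fructose transporter of microglia, with 3.12, 4.16, 5.41, 4.48 and 5.31 CPM against 5.02 to 7.93 (log2 fold change -0.43, SE 0.13), the histone gene H2bu2 (-0.30, SE 0.10), Eva1a, a regulator of autophagy (-0.33, SE 0.12), Ndufb11 of complex I (-0.31, SE 0.11) and Gm47283, a Y-linked lncRNA (-1.26, SE 0.45). For each of these genes, the range of the Vehicle mice overlapped that of the 15. H2bu2, Ndufb11 and Gm47283 have merged exons under 2 kb, whereas Slc2a5 and Eva1a are longer. The nuclear genes under 2 kb described above had median log2 deviations of -0.07 in Vehicle, 0.09 in Control, -0.03 in Pool 1 and 0.01 in Pool 2. The part of gene length in these calls was not tested. Without mouse 1, Eva1a (-0.22), H2bu2 (-0.27) and Ndufb11 (-0.28) fell short of the study threshold, as did H2bu2 without mouse 3 (-0.27) and Ndufb11 without mouse 2 (-0.27).

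Of the 30 lists, 23 had no member past the study threshold. The exception in number was the choroid plexus list, in which all 10 genes were higher in Vehicle, with a median log2 fold change of 2.44 against 0.01 over all genes tested. Without mouse 4 the median was 0.80 and 1 of the 10, Otx2, passed. The count of 10 therefore rests on mouse 4. Against Control alone 4 of the 10 passed (median 1.76).

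Members of 6 other lists were past the threshold, against 3.84% of all genes higher and 0.921% lower, and none by the adjusted p-value. Drd2, the D2 dopamine receptor of striatal neurons, had 6.02, 2.94, 2.87, 3.69 and 4 CPM against 1.39 to 4.38 in the 15, with a log2 fold change of 0.51 (SE 0.19) in all mice and 0.29 without mouse 1. This call thus rests on the mouse with the highest values of the striatal list. Igf2 (0.259 to 1.59 CPM in the 15) was higher by 1.09 (SE 0.34), and by 0.49 without mouse 4, where the call was lost. Coch (2.47 to 11.9 CPM in the 15) was higher by 0.76 (SE 0.31), with the call lost without mouse 4 (0.42) or mouse 5 (0.70). Foxj1 (3.94 to 17.5 CPM in the 15) was higher by 0.83 (SE 0.33), with the call lost without mouse 1 (0.68), 2 (0.76) or 4 (0.69). Each of these calls depended on 1 or more single mice.

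Lower in Vehicle were Alas2, which makes the first step of haem synthesis in red cells, and Dbp, a clock output factor. Alas2 had 3.08, 1.99, 2.22, 1.23 and 2.09 CPM against 1.63 to 6.22 (log2 fold change -0.49, SE 0.23), and the call was lost when any of mice 2 to 5 was left out (-0.51 to -0.35). Dbp had 43.9, 36, 42.3, 36.2 and 57.6 CPM against 40.9 to 76 (-0.31, SE 0.13), and the call was lost without mouse 2, 3 or 4 (-0.30 to -0.25). In both genes the ranges overlapped. Of the hippocampal neuronal, glial and vascular lists other than CA3, no member was past the threshold. The median log2 fold change was 0.26 for oligodendrocyte, -0.09 for astrocyte, 0.04 for microglial, 0.02 for interneuron and -0.03 for pan-neuronal markers, and -0.03 for immediate early genes.

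The genes whose proteins the study stained or named were also compared. Gfap ranged over 368 to 1401 CPM in the 15 sRNA mice, which encloses all Vehicle mice except mouse 4, and its log2 fold change was -0.18 (SE 0.18). Aif1 ranged over 3.78 to 29.7 CPM there (0.12, SE 0.34), Pvalb over 18.2 to 43.1 (-0.16, SE 0.17) and Syt2 over 20.03 to 48.5 (-0.04, SE 0.18). All 4 changes were within 2 SE of 0 and none passed the study threshold.

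The 50 most variable genes and the test met in the same genes. Of the 50, 42 were past the threshold as higher in Vehicle and 0 as lower, beside 3.84% and 0.921% of all genes. Without mouse 4, 4 of the same 50 were past it. A gene chosen for its spread in Vehicle with mouse 4 as the highest has a raised Vehicle mean by that choice, so the count of 42 is a description and supports nothing. Of the 20 most abundant genes, 1, Ttr, was past the threshold (log2 fold change 2.75, SE 0.87), and without mouse 4 its value was 0.82 and the call was lost.

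**Figure D5:**
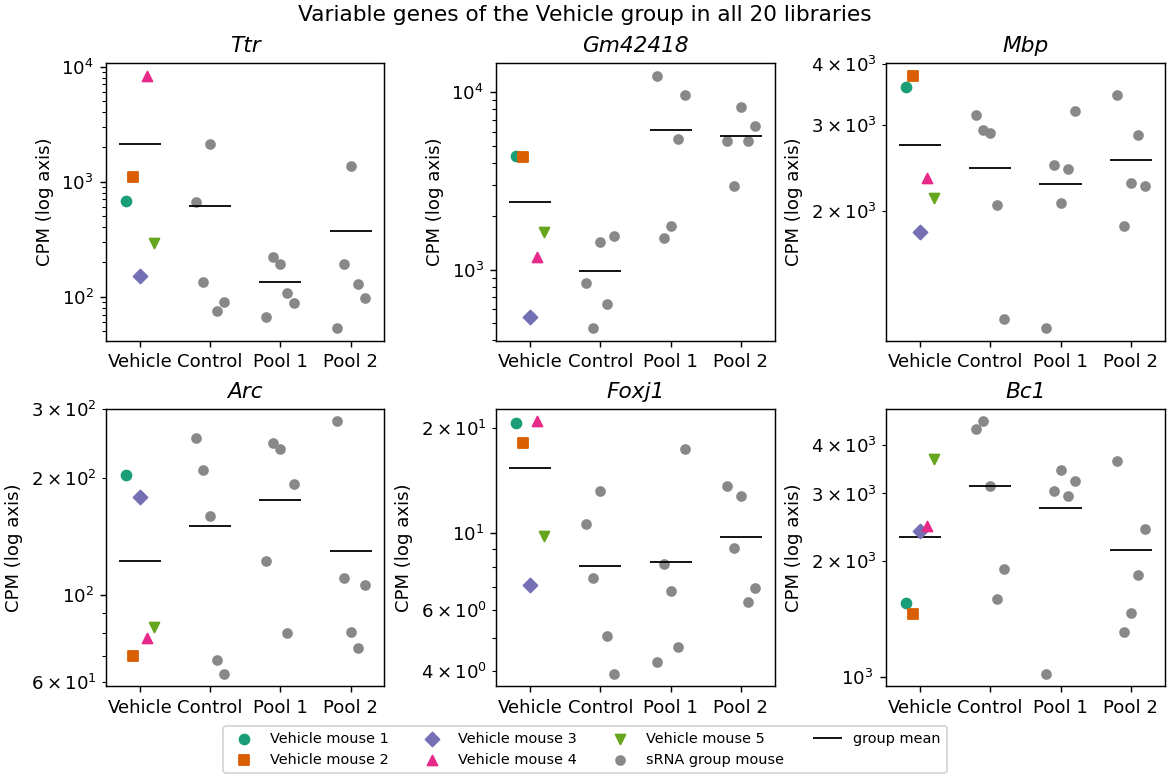
CPM (log axis) of Ttr, Gm42418, Mbp, Arc, Foxj1 and Bc1 in each of the 20 libraries, by group, with a symbol of its own for each Vehicle mouse, grey points for mice given sRNAs and a bar at the group mean. Vehicle mouse 4 is the highest of all for Ttr (8329.6 CPM), Vehicle mice 1 and 2 for Mbp (3596 and 3791), and the Vehicle range overlaps that of the other mice in all 6 panels.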

How the data were processed

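Poly(A) RNA of 20 mouse hippocampi was sequenced as single 50-base reads by the authors, who aligned the reads to GRCm38 with STAR 2.5.3a and the GENCODE M20 annotation and counted, per gene, reads mapping to 1 place. The deposited values are raw counts of 25190 genes, after the authors had dropped genes with a summed count under 10. Gene lengths came from GENCODE M21 (99.8% of genes matched), and levels between genes are counts per kilobase scaled to a total of 1000000. CPM used TMM library sizes (edgeR 4.0.16, R 4.3.3), with a prior count of 2 for log2 values. Vehicle was contrasted with the mean of the 3 sRNA groups by the quasi-likelihood test of edgeR (robust, all 20 libraries, no filter), with Benjamini-Hochberg adjustment. On simulated counts of all 25190 genes it recovered 99.5% of 200 genes changed by a log2 of 2, with 4 false calls at an adjusted p under 0.05, while 3.18% of unchanged genes passed the unadjusted threshold of the study. Shares were compared by exact two-sided permutation. With 5 samples per group, no correlation between genes is given. Named genes were the 20 highest by level and the 10 highest non-coding ones, the 30 most variable and 10 steadiest, the highest, lowest and most variable member of each list with those past the threshold, the 5 higher and 5 lower with the smallest p at 1 CPM or more, every gene with an adjusted p under 0.05, the strain and sex lists, and Syt2, Pvalb, Gfap and Aif1. Some of these genes are not reported here. The libraries, gene lists and rules were chosen with earlier results of these data known. Alternatives were other size factors, filterByExpr, DESeq2 1.42.0, other cut-offs and libraries left out. P-values measure only the spread between these mice, and intervals of low counts cover counting error only. Promoter sequences are from RefSeq.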

Additional observations from a re-analysis of the deposited data

Results flagged for a closer look

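In 85 sets of 5 Vehicle mice, 5 had a mouse far from its neighbours by Dixon's test at a critical value of 0.71, which chance alone gives in about 1 of 20 sets. The mean log2 deviation of the CA1 pyramidal list was 0.39 in mouse 3, with the other mice between -0.15 and -0.06. For the adult neurogenesis list it was 0.79 in mouse 1, with the others between -0.30 and -0.04. The log2 CPM of mt-Rnr2 was 12.48 in mouse 5 and at most 12.36 in the others, and that of Eef1a1 was 11.06 in mouse 5 and at most 10.83 in the others. Cldn1 had a log2 CPM of 4.35 in mouse 4 and at most 1.22 in the others.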

How the results depend on the processing

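Of 1200 genes past the threshold in the edgeR test of Vehicle against the sRNA groups, 968 were higher and 232 lower in Vehicle. With filterByExpr, which left 17293 of the 25190 genes to test, there were 640 (524 higher and 116 lower). Against Control only 427 were lower. Leaving out each Vehicle mouse gave 847 to 1402 in all, 655 to 1173 higher and 192 to 323 lower. At an adjusted p under 0.05, 2 genes passed in edgeR, 23 in DESeq2, 0 with filterByExpr (1077 at an unadjusted p under 0.05), 0 against Control only (1672 unadjusted) and 0 to 38 with a mouse left out. These were 38 without mouse 3 and 0 without mouse 1 (1203 unadjusted), mouse 2 (1117) or mouse 5 (2115). Of the choroid plexus genes 10 were past the threshold, 4 against Control only, 1 to 10 with a mouse left out, and 1 without mouse 4, with or without Pool 2 replicate 1.

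The replicate block, with replicate number as a term, gave 995 genes (813 higher and 182 lower), with 1 at an adjusted p under 0.05. The numbers mark no shared animal, and same-numbered libraries deviated together in 13 of 30 pairs (r over 0.1, median 0.00484, range -0.476 to 0.377), against 43 of 120 pairs with different numbers (median -0.00771).

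Without mitochondrial and rRNA-like genes, the difference of Vehicle minus sRNA in percentage points reversed for protein-coding (-0.0231), lncRNA (0.0307) and the top 50 genes (0.0779), and that of other non-coding genes was -0.00215. Genes with an SD of 0.5 or more numbered 340 at 5 CPM, 1000 at 1 CPM, 202 at 10 CPM and 267 to 410 with a mouse left out. The most variable 50 shared 26 genes with those at 1 CPM and 23 to 49 with a mouse left out, fewest without mouse 4. The log2 difference of Syt2 (-0.0393) reversed to 0.276 against Control only, 0.0279 without mouse 4, 0.0656 without mouse 5 and 0.00874 without mouse 4 and Pool 2 replicate 1, with -0.194 to 0.0656 over the libraries left out. That of Gfap (-0.184) reversed to 0.0122 without both libraries and was -0.258 at the lowest. That of Aif1 (0.121) reversed to -0.0437 without mouse 5, and without both libraries it was 0.499 and past the threshold. The cause was not tested in any of these. Of the results for whole comparisons 118 alternatives were counted as unchanged, 19 as moved and 3 as reversed. Unchanged meant the same direction and, except for the shares of counts, a value within 1.5 times or the spread between mice. The shares were judged by direction and by the side of the adjusted p threshold, not by size. The difference for other non-coding genes thus counted as unchanged, although it went from -0.169 to -0.00215 percentage points without mitochondrial and rRNA-like genes. At totals of 20588280 to 25142848 counts per Vehicle library, a count of 0 allows up to 0.119 to 0.146 CPM.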
